A study of Mus musculus and Sus scrofa with 30 samples.

Results

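Interferon-stimulated genes are the genes that cells switch on when an interferon binds its receptor, and 43 symbols of such genes were followed here across 2 fat-forming cell systems. A row was taken where its gene name equalled a listed symbol, ignoring case. This gave 40 of the 24843 genes in the mouse table and 38 of the 34307 genes in the pig table, or 78 of 59150 rows in all, and 35 of the symbols were listed in both. The mouse table did not list IFI6 or OASL, and it named RIGI by its older symbol Ddx58. The pig table did not list IFITM3, OASL2, RTP4 or SAMD9L. The symbols are textbook interferon targets that were chosen by their normalized counts as well as by their role, after earlier results had shown these values moving together between the libraries, so that joint movement is described below without a test.

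Bulk RNA-seq was done on the clonal mouse preadipocyte line 3T3-L1 and on porcine DFAT cells, fat cells from subcutaneous fat that had been dedifferentiated to a fibroblast-like state. Each system had 5 groups of 3 libraries, taken on day 5 of induction: DMSO as vehicle, the plant-derived compounds dicoumarol and magnolol singly, both together (the combination), and rosiglitazone, a synthetic agonist of the fat-cell regulator PPARγ. All 3T3-L1 groups shared insulin at 0.75 µg/mL, dexamethasone at 75 nM and IBMX at 37.5 µM in 10% serum, and all DFAT groups shared dexamethasone at 0.5 µM and IBMX at 12.5 µM in 2% serum with biotin and pantothenate. The labels do not state the doses of the compounds, the number of source pigs or whether replicates were separate cultures, so p-values measure only the spread between these libraries, which may be technical. No interferon, virus or nucleic acid was named as an agent in any group.

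Type I interferons signal through the receptor pair IFNAR1 and IFNAR2, the kinases JAK1 and TYK2, and a complex with STAT2 and IRF9 that binds the interferon-stimulated response element (ISRE) in target promoters. The targets include sensors of foreign RNA and DNA, factors that block viral replication, the ubiquitin-like modifier ISG15 with its enzymes, and parts of the immunoproteasome. Many cell types keep low levels of these transcripts without infection, and interferon gamma is known to reduce lipid storage in fat cells.

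The promoters below show 4 members with the ISRE core and Oasl2, the member with the deepest fall in 3T3-L1, without it. RefSeq promoters of GRCm38.p6, reaching from 250 bases before to 50 bases after a gene's start, were matched by symbol to 31 of the 40 mouse members. The ISRE core was searched as GAAANNGAAA on both strands (TTTCNNTTTC in reverse), and it occurred in the promoters of 11 of these 31 members, or 35.5%, against 3.99% of 27025 genes in the same table. The lines give the 160 bases just before the start, 5′ to 3′ on the gene's strand, with ISRE matches in capitals.
Isg15 (chr4:156200819-156200978, minus strand): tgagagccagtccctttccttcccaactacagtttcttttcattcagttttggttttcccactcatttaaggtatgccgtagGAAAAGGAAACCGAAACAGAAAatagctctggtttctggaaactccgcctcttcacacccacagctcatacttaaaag
Ifit1 (chr19:34640729-34640888, plus strand): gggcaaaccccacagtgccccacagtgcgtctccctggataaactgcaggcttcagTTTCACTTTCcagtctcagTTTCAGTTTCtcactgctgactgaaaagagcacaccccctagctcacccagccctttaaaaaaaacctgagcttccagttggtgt
Ifit3 (chr19:34583369-34583528, plus strand): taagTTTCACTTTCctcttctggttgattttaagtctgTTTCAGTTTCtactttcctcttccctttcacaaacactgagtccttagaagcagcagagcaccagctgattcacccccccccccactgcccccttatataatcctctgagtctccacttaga
Bst2 (chr8:71537473-71537632, minus strand): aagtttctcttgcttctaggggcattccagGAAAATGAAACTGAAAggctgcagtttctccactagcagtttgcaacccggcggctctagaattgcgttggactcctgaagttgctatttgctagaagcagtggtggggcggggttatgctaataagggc
Oasl2 (chr5:114896774-114896933, plus strand): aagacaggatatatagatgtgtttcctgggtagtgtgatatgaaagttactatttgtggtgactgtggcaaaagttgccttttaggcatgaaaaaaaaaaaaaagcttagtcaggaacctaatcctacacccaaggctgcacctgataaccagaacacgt
Isg15 held 3 overlapping matches, with first bases between 78 and 66 bases before the start. Bst2 held 2 that overlapped, Ifit1 and Ifit3 each held 2 that were apart, and Oasl2 held none in this window. A match is a match of letters only, and its absence says only that these letters are not there. The sequences are murine and were set beside the 3T3-L1 values alone.

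Values are gene counts divided by DESeq2 size factors, here called normalized counts, which are not divided by gene length, so levels are compared between groups and not between genes. Depth in M reads was estimated at 22.8 to 30.7 per 3T3-L1 library and 44.8 to 70.5 per DFAT library. Mitochondrial genes held 5.22% to 14.3% of a mouse library and 6.85% to 15.1% of a pig library. All members summed made up 0.0420% to 0.0805% of a mouse library and 0.0785% to 0.155% of a pig library. Genes averaging at least 10 normalized counts over the 15 libraries of a table were tested, which left 34 of the 40 mouse members and 36 of the 38 pig members. Under this minimum were Cxcl10, Epsti1, Ifi44l, Oas2, Rsad2 and Zbp1 in mouse and ISG20 and OASL in pig cells. A change was called at a limma adjusted p under 0.05 over all 15723 mouse or 14819 pig genes, with all 5 groups of a table in 1 model. Fold changes are differences of log2(value + 1), which understate the change of low genes, given ± SE against vehicle unless stated, with n = 3 libraries a group. Because these are bulk samples, fewer cells expressing a gene and less of its RNA per cell cannot be told apart.

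In 3T3-L1 cells most members fell with rosiglitazone. Of the 34 tested members 26 fell and 0 rose, where 19.9% of all genes fell and 20.3% rose, and the members' median log2 fold change was −0.89, against a value near 0 over all genes. The deepest falls were those of the RNA-binding factor Oasl2, the cytoskeleton-associated protein Ifi44, the nuclear body protein Sp110 and the antiviral GTPase Mx2. For 25 of the 34 members all 3 rosiglitazone libraries lay below all 3 vehicle libraries, which held for 22.1% of all genes. With the replicate number as a block, since same-numbered 3T3-L1 libraries deviated together, 27 members fell and 1 rose, against 25.4% and 24.4% of all genes.

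With the combination, 32 of the 34 mouse members lay below vehicle (51.8% of all genes did), with a median of −0.44, but only Bst2 fell at the threshold and 0 rose, against 1.36% and 3.86% of all genes. Unadjusted limma p-values were under 0.05 for 15 members, against 17.1% of genes. All 3 combination libraries lay below all 3 vehicle libraries for 16 members, against 9.44% of genes. The replicate block called 12 members lower in this comparison, against 5.48% of genes: Ifit3, Oasl2, Xaf1, Psmb9, Psmb8, Ifit2, Bst2, Ifitm3, Herc6, Parp14, Samd9l and Parp9. Their blocked log2 fold changes ran from −1.06 for Ifit3 to −0.33 for Parp9.

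Neither single compound was called for a mouse member. Dicoumarol gave 0 limma calls higher and 0 lower, where 0% of all genes passed in either direction. The members' median was −0.17, and 1 member had an unadjusted p under 0.05 against 2.5% of genes. All 3 dicoumarol libraries lay below all 3 vehicle libraries for 6 of the 34 members, against 2.68% of genes. They lay above them for 0 members, against 3.15% of genes. Magnolol gave 0 limma calls, where 1.07% of all genes rose and 0.153% fell, with a member median of −0.14, and 4 members had an unadjusted p under 0.05 against 10% of genes. Its libraries lay below all vehicle libraries for 5 members, against 6.86% of genes, and above them for 0, against 8.52%. With the block, Ifitm3 fell with magnolol (−0.44, adjusted p = 0.0208), where 1.44% of genes fell. Between the combination and dicoumarol limma called 0 members, where 0.0254% of genes rose and 0% fell, and 5 members had an unadjusted p under 0.05 against 8.1% of genes. With the block 1 member, Bst2, fell (−0.54, adjusted p = 0.0452), where 1.13% of genes did. Against magnolol limma called 0 members (0% of genes rose and 0% fell), and 0 members had an unadjusted p under 0.05, against 2.14% of genes.

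In DFAT cells the group means of most members lay above vehicle with either single compound and below it with both together, but not in every library. By the median deviation of the members in a library, given further down, dicoumarol replicate 2, magnolol replicates 1 and 3 and combination replicate 2 lay within the range of the vehicle libraries. Of all genes 49.9% lay below vehicle with dicoumarol and 51.7% with magnolol. Of the 36 tested members 33 lay above vehicle with dicoumarol (median 0.30) and 31 with magnolol (median 0.28). None of these differences passed: limma called 0 members with dicoumarol (0.911% of genes rose and 1.03% fell) and 0 with magnolol (2.96% rose and 1.27% fell), and unadjusted p-values were under 0.05 for 8 and 5 members, against 10.1% and 16.7% of genes. All 3 libraries lay above all 3 vehicle libraries for only 4 members with dicoumarol and for 4 with magnolol, against 9.8% and 10.9% of genes, shares close to the background. With the combination 34 of the 36 lay below vehicle (52.2% of all genes did), with a median of −0.24. Unadjusted limma p-values were under 0.05 for 5 members, against 3642 of 14819 genes. At the threshold 2 members fell, IFI6 and IRF1, against 4.06% of genes, while 0 rose, against 6.11%. The combination's libraries lay below all vehicle libraries for 5 members, against 14.7% of genes.

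Rosiglitazone lowered 8 of the 36 pig members and raised 0, against 5.02% and 5.8% of all genes, with a member median of −0.43. The members that fell were IFI6, BST2, HERC6, DHX58, IFI44L, PSMB8, EIF2AK2 and STAT2. For 20 of the 36 all 3 rosiglitazone libraries lay below all 3 vehicle libraries, against 10.9% of genes. IFI6, IFI44L and STAT2 kept their calls under every alternative run. The other 5 lost theirs without the filter on low values and without the variance trend, and without single libraries (adjusted p from 0.0516 to 0.175): BST2 without any vehicle library or rosiglitazone replicate 3; HERC6 without vehicle replicate 3 or rosiglitazone replicate 1 or 3; DHX58 without any vehicle library or rosiglitazone replicate 1 or 3; EIF2AK2 without vehicle replicate 2 or 3 or rosiglitazone replicate 1 or 3; and PSMB8 without any of the 6, and also when only the compared groups were fitted (0.0566).

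Cell markers and RNA measures also differed between the groups, in DFAT not always in step with the members. In 3T3-L1 the 13 adipocyte markers summed to 51805 to 69456 with vehicle, 127050.4 to 196981 with the combination and 339694 to 583316 with rosiglitazone, and with rosiglitazone all 12 tested markers rose, where 20.3% of all genes did. The 9 preadipocyte and fibroblast markers summed to 333878 to 372443 with vehicle and 208520.4 to 254819.6 with rosiglitazone, and mitochondrial genes held 5.22% to 7.00% and 7.66% to 14.3% of the counts. In DFAT the adipocyte markers summed to 18735 to 21617 with vehicle, 24546 to 26325 with dicoumarol, 63307 to 70585 with the combination and 81551 to 88512 with rosiglitazone, and 10 of the 12 tested rose with rosiglitazone, where 5.8% of all genes did. The 7 listed pig preadipocyte and fibroblast markers summed to 1879519 to 2007705 with vehicle, 2495159 to 2594653 with dicoumarol, 2813720.2 to 3166989 with magnolol, 2769737 to 3224044 with the combination and 1564108 to 1654083 with rosiglitazone. Pig mitochondrial shares were 9.58% to 10.2% for vehicle, 10.7% to 11.7% for dicoumarol, 10.5% to 12.9% for magnolol, 12.2% to 15.1% for the combination and 6.85% to 10.8% for rosiglitazone. DFAT magnolol replicate 2, the highest magnolol library for most members, summed to 45455, between 38539 and 46751 in its replicates 1 and 3. The part of these measures in the members' values was not tested.

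Leukocyte signal was low in both systems. Of 15 macrophage and leukocyte markers 9 were listed in 3T3-L1, with 5 of them averaging under 10, and they summed to 421 to 450.3 with vehicle, 289.5 to 341 with the combination and 186 to 235 with rosiglitazone. Most of that sum was Cd14 and Lyz2, which fell with rosiglitazone (−1.32 ± 0.14 and −1.78 ± 0.20), 2 of the 4 tested markers, where 19.9% of all genes fell. The markers Itgam and Laptm5 averaged under 1 count. In DFAT 13 were listed, 10 of them averaging under 10, and they summed to 732 to 1083 over the 15 libraries, mostly CD14. The pan-leukocyte gene PTPRC was at 0 in 14 of 15 DFAT libraries, CD3E was at 0 in all 15, and 0 of the 3 tested markers changed with rosiglitazone, where 5.8% of all genes rose and 5.02% fell. Their part in the members' values was not tested.

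**Figure D1:**
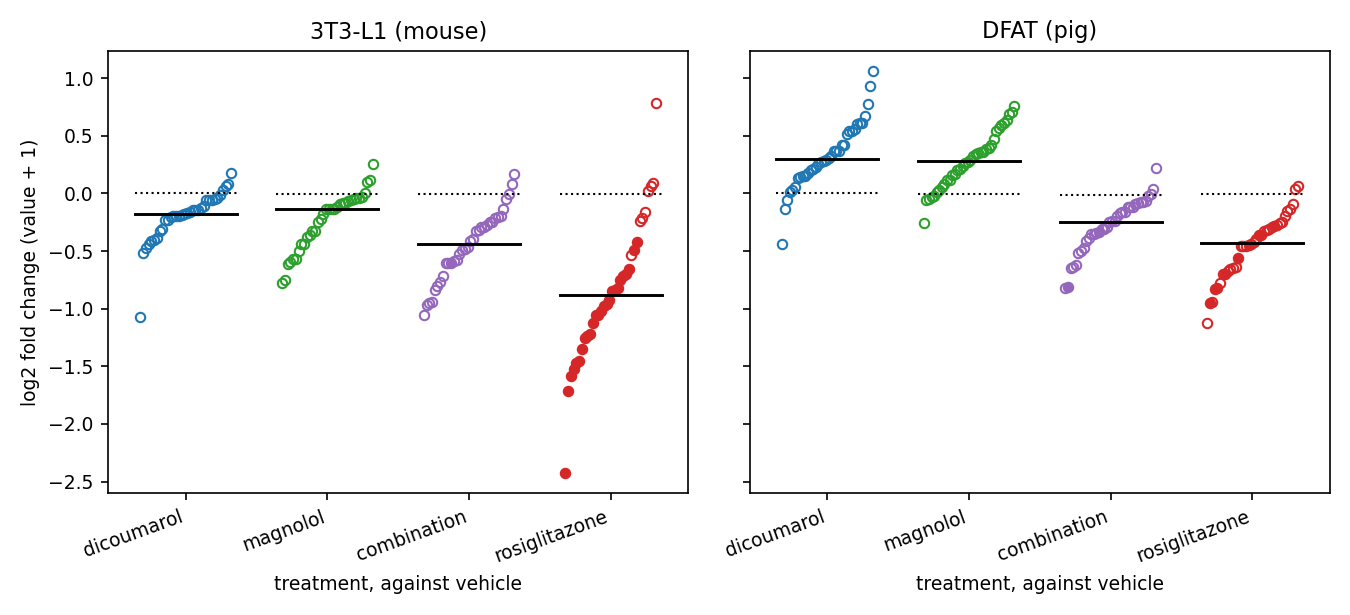
Log2 fold changes against vehicle (vertical axis, log2 of value + 1) of the tested members, 34 in 3T3-L1 (left) and 36 in DFAT (right), 1 point a gene, sorted within each treatment; filled points passed the threshold, solid lines are the members' medians and dotted lines the medians of all genes. The 3T3-L1 medians lie below 0 with all 4 treatments, lowest with rosiglitazone at −0.89, and the DFAT medians lie at 0.30 and 0.28 with the single compounds and at −0.24 and −0.43 with the combination and rosiglitazone.

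The sensors detect foreign nucleic acid in the cytosol. Ddx58, which encodes RIG-I and is listed as RIGI in the pig table, senses viral RNA ends. The mouse libraries, given here and below for replicates 1, 2 and 3 in order, held Ddx58 at 931, 951 and 1089 with vehicle, 893, 833 and 961 with dicoumarol, 927, 937 and 993 with magnolol, 882, 791 and 887 with the combination and 489.6, 597 and 598 with rosiglitazone. All 3 rosiglitazone libraries were the lowest of the 15, and the change was −0.82 ± 0.10, adjusted p = 1.44e-05. In the pig table RIGI stood at 3499, 3898 and 4917 with vehicle, 5263, 3869 and 7122 with dicoumarol, 4415, 7003 and 4581 with magnolol, 2987, 5201 and 3677 with the combination and 2684, 3863 and 3381 with rosiglitazone. In DFAT dicoumarol replicates 1 and 3, magnolol replicate 2 and combination replicate 2 were the 4 highest libraries, and rosiglitazone overlapped with vehicle (−0.31 ± 0.23, adjusted p = 0.494).

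Ifih1 encodes MDA5, a sensor of long double-stranded RNA. Its mouse counts were 124, 128 and 124 with vehicle, 104, 109.5 and 116 with dicoumarol, 105, 107 and 138 with magnolol, 98.4, 96.4 and 107 with the combination and 50.3, 62.0 and 74.1 with rosiglitazone. Rosiglitazone libraries lay below every other library, a change of −1.02 ± 0.16, adjusted p = 0.000137. For IFIH1 the pig libraries held 796, 873 and 987 with vehicle, 1319, 957 and 1306 with dicoumarol, 921, 1380.05 and 1134 with magnolol, 729, 1034 and 897 with the combination and 643, 784 and 773 with rosiglitazone. No pig treatment was called against vehicle, and the rosiglitazone difference was −0.27 ± 0.16, adjusted p = 0.345. Dhx58, which encodes LGP2, a regulator of both sensors, fell with rosiglitazone in both systems, at −0.75 ± 0.15, adjusted p = 0.00118 in mouse and −0.70 ± 0.21, adjusted p = 0.0427 in pig cells. Pig DHX58 was counted at 332, 429 and 337 with vehicle, 642, 394 and 592 with dicoumarol, 397, 619 and 358 with magnolol, 237, 378 and 255 with the combination and 229, 243 and 199.6 with rosiglitazone, and its rosiglitazone and vehicle libraries did not overlap. Zbp1, a sensor of Z-form nucleic acid, stayed under the minimum in 3T3-L1 at 0 to 11.7 normalized counts, with a range of up to 2.23 log2 units within a group, and stood at 302 to 1157 in DFAT.

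Stat2 and Irf9 belong to the interferon-activated transcription complex. Stat2 counts in 3T3-L1 were 786, 791 and 928 with vehicle, 745, 807 and 861 with dicoumarol, 724, 801 and 839 with magnolol, 722, 703 and 739 with the combination and 643, 519 and 624 with rosiglitazone. The 3 rosiglitazone values were the lowest, a change of −0.49 ± 0.10, adjusted p = 0.00155. STAT2 in DFAT varied little between replicates, at 8511, 8347 and 8298 with vehicle, 9085, 8184 and 8932 with dicoumarol, 8167, 8501 and 7680.1 with magnolol, 7845, 8310.4 and 7762 with the combination and 6674, 7418 and 6671 with rosiglitazone. Again the rosiglitazone libraries lay below all others, and the change was −0.28 ± 0.06, adjusted p = 0.005. Irf9 in 3T3-L1 stood at 424, 478 and 436 with vehicle, 420.5, 408 and 394 with dicoumarol, 438, 429 and 435 with magnolol, 377, 390.3 and 361 with the combination and 359.6, 288 and 353 with rosiglitazone. It fell with rosiglitazone, at −0.42 ± 0.10, adjusted p = 0.0036, without overlap. Pig IRF9 was counted at 1415, 1617 and 1344 with vehicle, 1694, 1427 and 1733 with dicoumarol, 1649, 1834 and 1427 with magnolol, 1269, 1397 and 1161 with the combination and 1173, 1409.8 and 1344 with rosiglitazone, and its rosiglitazone and vehicle libraries overlapped (−0.16 ± 0.11, adjusted p = 0.457).

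Irf7 amplifies interferon production, and Irf1 is induced mainly by interferon gamma and inflammatory signals. Irf7 was low in 3T3-L1, at 51.7, 64.2 and 67.4 with vehicle, 67.1, 62.8 and 60.5 with dicoumarol, 59.2, 54.8 and 57.7 with magnolol, 61.9, 53.9 and 50.7 with the combination and 60.8, 50.02 and 44.5 with rosiglitazone. No group separated from vehicle by more than its spread (−0.24 ± 0.18, adjusted p = 0.303 with rosiglitazone). IRF7 in the pig libraries was 348, 414 and 281 with vehicle, 405, 355 and 428 with dicoumarol, 423, 442 and 279 with magnolol, 300.1, 325 and 246 with the combination and 338, 319 and 247 with rosiglitazone, with overlap between vehicle and rosiglitazone (−0.20 ± 0.18, adjusted p = 0.598). Irf1 in 3T3-L1 read 792, 784 and 985 with vehicle, 681, 773 and 853 with dicoumarol, 705, 727 and 899 with magnolol, 658, 689 and 809 with the combination and 787, 652 and 767 with rosiglitazone. Replicate 3 was the highest of its group with vehicle, dicoumarol, magnolol and the combination, and rosiglitazone differed by −0.21 ± 0.13, adjusted p = 0.212. Pig IRF1 read 650.2, 714 and 627 with vehicle, 615, 598 and 593 with dicoumarol, 626, 691 and 648 with magnolol, 517, 567 and 493 with the combination and 492, 599 and 588 with rosiglitazone. The 3 combination libraries lay below all vehicle libraries, a change of −0.34 ± 0.09, adjusted p = 0.0205, which was lost without vehicle replicate 1 or 2 or combination replicate 1 or 3 (adjusted p from 0.0501 to 0.0881). Of the 4 transcription factors, 2 fell with rosiglitazone in 3T3-L1 and 1 in DFAT, against 19.9% and 5.02% of all genes, with medians of −0.33 and −0.22.

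IFIT proteins bind foreign RNA and block its translation. Ifit1 in 3T3-L1 was counted at 32.1, 30.8 and 91.7 with vehicle, 29.2, 26.7 and 58.5 with dicoumarol, 47.5, 32.7 and 54.8 with magnolol, 27.4, 37.8 and 30.8 with the combination and 12.6, 18.5 and 34.6 with rosiglitazone. Vehicle replicate 3 stood far above the other vehicle libraries, and Ifit1 fell with rosiglitazone (−1.12 ± 0.43, adjusted p = 0.047) although those groups overlapped. Ifit3 has a near-identical copy in the mouse, Ifit3b, so that its counts are uncertain. Ifit3 showed 47.7, 31.4 and 98.8 with vehicle, 34.9, 35.1 and 51.8 with dicoumarol, 28.5, 52.1 and 45.2 with magnolol, 25.5, 18.0 and 33.9 with the combination and 16.0, 27.0 and 25.4 with rosiglitazone. It had the same high vehicle library, and rosiglitazone lowered it without overlap, at −1.22 ± 0.38, adjusted p = 0.0171. Without vehicle replicate 3 the calls of Ifit1, Ifit3, Mx1, Mx2 and Cmpk2 were lost (adjusted p from 0.0987 to 0.244), as they were without rosiglitazone replicate 1 (0.0800 to 0.201). Single further libraries ended some of these calls: vehicle replicate 2 for Mx1, vehicle replicate 1 for Mx2, and rosiglitazone replicate 2 for Ifit1, Mx1, Mx2 and Cmpk2 (0.0537 to 0.0942). Other settings ended some as well: the compared groups alone for Ifit1, Mx1 and Cmpk2 (0.0902 to 0.101), quantile normalization for Ifit1, Mx1 and Mx2 (0.0512 to 0.0590), no filter for Ifit1 and Mx2 (0.0546 and 0.0684) and no variance trend for Ifit1 (0.0638). The other 21 mouse calls with rosiglitazone held under every alternative run.

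Pig IFIT1 varied widely between replicates, at 982, 1481 and 1412 with vehicle, 2214, 1188 and 3183 with dicoumarol, 1325, 3127 and 1702 with magnolol, 523, 1293 and 789.9 with the combination and 489.6, 1042 and 935 with rosiglitazone. Dicoumarol replicates 1 and 3 and magnolol replicates 2 and 3 lay above every vehicle library, while dicoumarol replicate 2 and magnolol replicate 1 lay within the vehicle range. Its log2 differences from vehicle were 0.68 ± 0.38 for dicoumarol, 0.59 ± 0.38 for magnolol, −0.65 ± 0.38 for the combination and −0.70 ± 0.38 for rosiglitazone, none of them called. IFIT3 followed the same libraries, at 1012, 1148 and 1122 with vehicle, 1685, 1056 and 2338 with dicoumarol, 1198, 2496 and 1413 with magnolol, 573, 1220.1 and 913 with the combination and 534, 861 and 737 with rosiglitazone. Ifit2, a relative of both, fell with rosiglitazone in 3T3-L1 (−0.96 ± 0.21, adjusted p = 0.00183) and read −0.77 ± 0.34 in DFAT, which did not pass.

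The 2′-5′-oligoadenylate synthetases start RNA decay after binding double-stranded RNA, and Oasl2 is a mouse relative of that family. Oasl2 held the deepest fall of any mouse member. Its libraries read 126, 89.0 and 143 with vehicle, 89.2, 70.5 and 101 with dicoumarol, 101, 71.7 and 63.6 with magnolol, 63.9, 52.9 and 64.6 with the combination and 19.9, 10.9 and 42.0 with rosiglitazone. Every rosiglitazone library lay below every other library, and the change was −2.42 ± 0.35, adjusted p = 5.79e-05. With the combination Oasl2 was also below vehicle in all 3 libraries, at −0.95 ± 0.35, adjusted p = 0.146, and passed with the replicate block (−0.95, adjusted p = 0.0301). Mouse Oas2 stayed under the minimum, at 13.4, 5.99 and 4.65 with vehicle, 8.83, 4.76 and 6.83 with dicoumarol, 10.7, 8.44 and 1.96 with magnolol, 9.13, 1.89 and 2.98 with the combination and 6.29, 2.17 and 3.70 with rosiglitazone. Pig OAS2 was well detected, at 5902, 8519.7 and 7056 with vehicle, 9829.7, 7456 and 10488 with dicoumarol, 9037, 11124 and 7966 with magnolol, 6345, 8317 and 6449 with the combination and 5365, 4482 and 5716 with rosiglitazone. Its rosiglitazone libraries lay below all vehicle libraries but the difference of −0.46 ± 0.15, adjusted p = 0.0717 was not called. Pig OASL was under the minimum, at 3.38, 0.93 and 6.11 with vehicle, 7.80, 4.28 and 6.88 with dicoumarol, 3.01, 8.23 and 5.26 with magnolol, 3.92, 7.29 and 12.7 with the combination and 10.3, 5.14 and 7.13 with rosiglitazone. ISG20, which encodes an RNA exonuclease, was the least counted pig member, at 0, 1.87 and 0 with vehicle, 0, 3.43 and 3.93 with dicoumarol, 1.00, 1.83 and 1.05 with magnolol, 0, 0 and 1.27 with the combination and 0, 0.86 and 0 with rosiglitazone. Both have within-group ranges among the 3 widest of the pig members (1.88 and 2.30 log2 units), at counts too low to test. Isg20 in 3T3-L1 differed by −0.53 ± 0.23, adjusted p = 0.0723 with rosiglitazone and fell with the replicate block (−0.53, adjusted p = 0.0403). Eif2ak2, which encodes the RNA-activated kinase PKR, was not called in mouse cells (−0.16 ± 0.07, adjusted p = 0.0901). Pig EIF2AK2 stood at 8193, 8854 and 9449.9 with vehicle, 10010.3, 8339 and 10959 with dicoumarol, 8865, 11041 and 10037 with magnolol, 7698, 8524 and 8141 with the combination and 6171, 7676 and 6858 with rosiglitazone. All 3 rosiglitazone libraries were the lowest of the 15, at −0.36 ± 0.10, adjusted p = 0.0285.

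**Figure D2:**
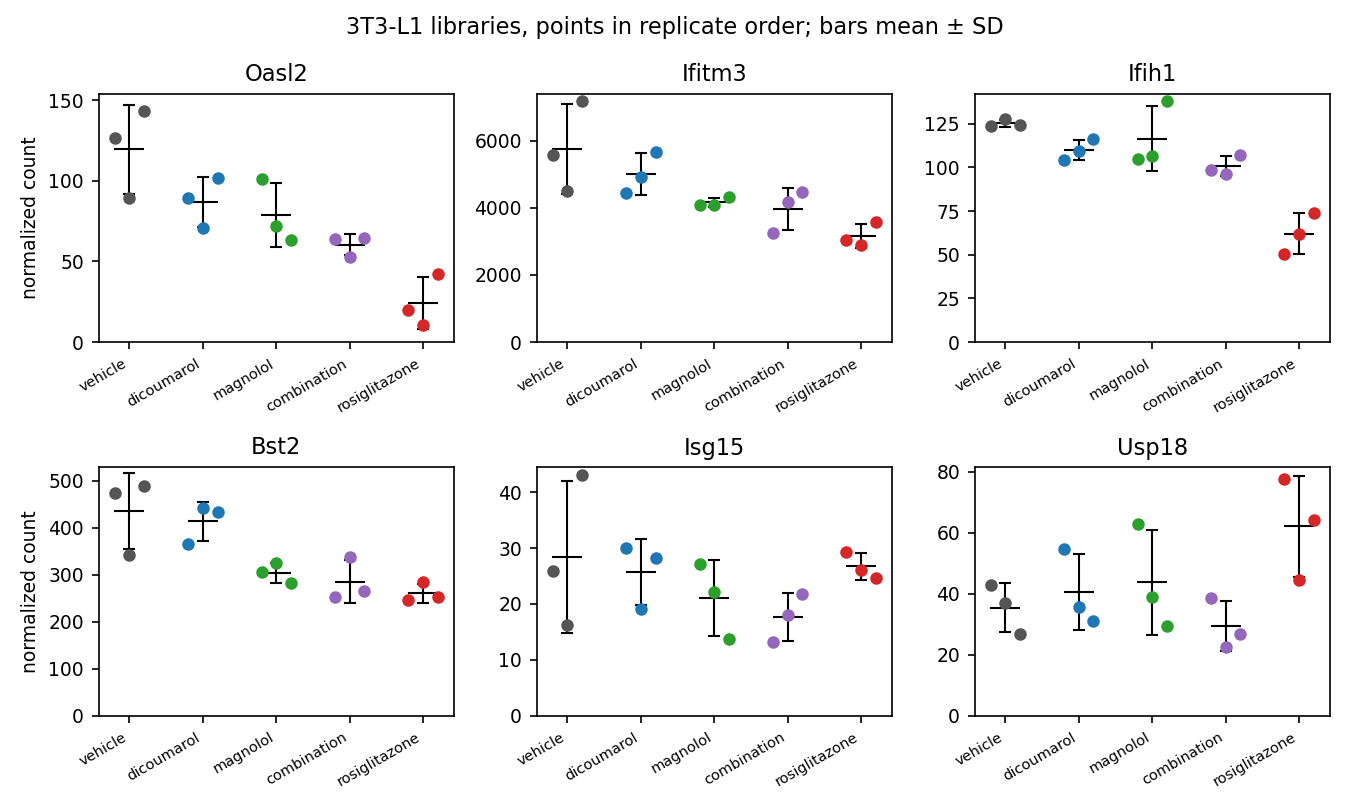
Normalized counts (vertical axes, starting at 0) of 6 members in the 15 3T3-L1 libraries, 1 point a library in replicate order, with the group mean and SD as bars. Oasl2, Ifitm3, Ifih1 and Bst2 are lower with rosiglitazone than with vehicle in all 3 libraries, while Isg15 overlaps and Usp18 is higher.

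Mx1 and Mx2 are dynamin-like GTPases that trap viral particles. Mouse Mx1 was near the minimum, at 11.9, 16.3 and 24.4 with vehicle, 5.49, 8.57 and 8.78 with dicoumarol, 10.7, 12.7 and 21.5 with magnolol, 9.13, 14.2 and 12.9 with the combination and 3.15, 6.52 and 12.3 with rosiglitazone. Mx1 fell with rosiglitazone (−1.25 ± 0.44, adjusted p = 0.0311), with 1 library inside the vehicle range. Pig MX1, the most counted pig member, stood at 7684, 9117 and 9551 with vehicle, 11494, 8616 and 12737 with dicoumarol, 9592, 14397 and 9457 with magnolol, 6719.8, 10414 and 7429.9 with the combination and 5552, 7106 and 6536 with rosiglitazone. All 3 rosiglitazone libraries were below vehicle, and the difference of −0.46 ± 0.18, adjusted p = 0.123 did not pass. Mx2 had the widest range of any tested mouse member within a group, 2.22 log2 units between magnolol libraries, and its counts were 20.2, 14.6 and 36.0 with vehicle, 19.2, 14.3 and 16.6 with dicoumarol, 22.3, 26.4 and 4.89 with magnolol, 19.3, 13.2 and 4.97 with the combination and 5.24, 6.52 and 9.88 with rosiglitazone. It fell with rosiglitazone, at −1.53 ± 0.55, adjusted p = 0.038. Pig MX2 differed by 0.93 ± 0.33 with dicoumarol and 0.04 ± 0.33 with rosiglitazone, neither called.

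Bst2, or tetherin, holds budding virus on the cell surface. Its mouse counts were 474, 341 and 488 with vehicle, 366, 443 and 433 with dicoumarol, 306, 325 and 283 with magnolol, 252, 337 and 265 with the combination and 245, 284 and 253 with rosiglitazone. The combination libraries lay below the vehicle libraries, a change of −0.60 ± 0.15, adjusted p = 0.0268, and so did the rosiglitazone libraries, a change of −0.72 ± 0.15, adjusted p = 0.00118. The combination call was lost when only the compared groups were fitted (adjusted p = 0.0758) and without vehicle replicate 1 or 3 or combination replicate 1 or 3 (0.0958 to 0.155). Pig BST2 was counted at 276, 298 and 323 with vehicle, 333, 252 and 334 with dicoumarol, 293, 399 and 243 with magnolol, 230.4, 349 and 149 with the combination and 177, 168 and 159.8 with rosiglitazone. Rosiglitazone lowered it without overlap, at −0.83 ± 0.23, adjusted p = 0.0253, and combination replicate 2 lay above all vehicle libraries while its replicates 1 and 3 lay below them.

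Ifitm3 blocks the fusion of virus with cell membranes and was the most counted mouse member. It stood at 5564, 4512 and 7183 with vehicle, 4443, 4925 and 5673 with dicoumarol, 4085, 4079 and 4321 with magnolol, 3245, 4162 and 4458 with the combination and 3033, 2894 and 3573 with rosiglitazone. Values with rosiglitazone lay below all vehicle values, a change of −0.84 ± 0.15, adjusted p = 0.000424. All combination libraries were also below all vehicle libraries, at −0.53 ± 0.15, adjusted p = 0.0565, which passed with the block (−0.53, adjusted p = 0.00283). Rsad2 encodes viperin, which makes a chain-terminating nucleotide. It was at the edge of detection in 3T3-L1, at 1.78, 1.71 and 1.16 with vehicle, 4.42, 0.95 and 2.93 with dicoumarol, 0, 1.05 and 1.96 with magnolol, 0, 0.94 and 0.99 with the combination and 3.15, 2.17 and 1.23 with rosiglitazone. In DFAT RSAD2 was clearly detected and among the most variable members, at 298, 290.5 and 176 with vehicle, 469, 335 and 891 with dicoumarol, 277, 722 and 334 with magnolol, 92.2, 291 and 197 with the combination and 151, 194 and 202 with rosiglitazone. Its difference from vehicle was 1.06 ± 0.40 with dicoumarol and −0.50 ± 0.40 with the combination, neither called. Cmpk2, a nucleotide kinase gene next to Rsad2, fell with rosiglitazone in 3T3-L1 (−1.06 ± 0.36, adjusted p = 0.0286), and Samd9l, which restricts poxviruses, fell as well (−0.93 ± 0.14, adjusted p = 0.000103). All 6 tested mouse members of this group of membrane, nucleotide and GTPase factors fell with rosiglitazone, and 1 of 5 did in DFAT, against 19.9% and 5.02% of all genes.

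ISG15 is a ubiquitin-like modifier that is joined to proteins by a chain of enzymes starting with Uba7 and is removed by Usp18. Mouse Isg15 was low, at 25.8, 16.3 and 43.0 with vehicle, 30.03, 19.0 and 28.3 with dicoumarol, 27.2, 22.1 and 13.7 with magnolol, 13.2, 18.0 and 21.9 with the combination and 29.4, 26.1 and 24.7 with rosiglitazone. Rosiglitazone lay within the vehicle range (0.02 ± 0.35, adjusted p = 0.974). Pig ISG15 ranged widely, at 237, 246 and 275 with vehicle, 399, 239.8 and 487 with dicoumarol, 298, 473 and 237 with magnolol, 138, 423 and 143 with the combination and 181, 238 and 163 with rosiglitazone. Combination replicate 2 lay above all vehicle libraries, and combination replicates 1 and 3 were the lowest libraries of the table. No ISG15 comparison with vehicle was called (from −0.39 with rosiglitazone to 0.51 with dicoumarol).

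Usp18 also blocks the interferon receptor, which makes it a brake on the pathway. It had the largest positive difference of the tested mouse members with rosiglitazone, and its counts were 42.8, 36.8 and 26.7 with vehicle, 54.8, 35.7 and 31.2 with dicoumarol, 62.8, 39.0 and 29.3 with magnolol, 38.5, 22.7 and 26.8 with the combination and 77.6, 44.6 and 64.2 with rosiglitazone. All 3 rosiglitazone libraries exceeded all vehicle libraries, but 0.78 ± 0.32, adjusted p = 0.0613 missed the threshold and passed with the replicate block only (0.78, adjusted p = 0.00647). Pig USP18 was counted at 1087, 1709 and 1514 with vehicle, 2036, 1409 and 2098 with dicoumarol, 1665, 2346 and 1616 with magnolol, 1294, 1571 and 1215 with the combination and 1324, 1572 and 1542 with rosiglitazone, and rosiglitazone differed from vehicle by 0.06 ± 0.18, adjusted p = 0.895. Parp14, an ADP-ribosyltransferase gene, held 548, 541 and 552 with vehicle, 464, 469 and 536 with dicoumarol, 493, 450.4 and 556 with magnolol, 437, 381 and 417 with the combination and 149, 214 and 238 with rosiglitazone. Its 3 rosiglitazone libraries were the lowest of the 15. Among the genes of this group Parp14 (−1.47 ± 0.14, adjusted p = 1.91e-06), Herc6 (−1.06 ± 0.24), Dtx3l (−0.84 ± 0.20), Uba7 (−0.70 ± 0.18) and Parp9 (−0.66 ± 0.10) fell with rosiglitazone in 3T3-L1. Parp9 works with the ubiquitin ligase Dtx3l, and Herc6 is the mouse ligase for ISG15. In DFAT 1 of the 8, HERC6, fell, where 5.02% of all genes did. HERC6 counts were 1866, 2052 and 2983 with vehicle, 2790.4, 2274 and 3548 with dicoumarol, 2280.1, 3148 and 2022 with magnolol, 1616, 2488 and 1507 with the combination and 1123, 1583 and 1168 with rosiglitazone. Rosiglitazone and vehicle did not overlap for HERC6 (−0.82 ± 0.22, adjusted p = 0.0194). Trim25, a ligase that activates RIG-I, differed by 0.07 ± 0.12 in mouse and −0.14 ± 0.12 in pig cells, neither called.

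Psmb8 and Psmb9 encode catalytic subunits of the immunoproteasome, which cuts peptides for antigen presentation. Mouse Psmb8 was 120.3, 95.0 and 135 with vehicle, 113, 97.1 and 92.6 with dicoumarol, 92.1, 96.0 and 88.0 with magnolol, 63.9, 101 and 66.5 with the combination and 62.9, 54.4 and 58.0 with rosiglitazone. Rosiglitazone libraries were the lowest 3 of the 15, a change of −0.97 ± 0.19, adjusted p = 0.000728. Pig PSMB8 was 291, 309 and 350.3 with vehicle, 342, 329.7 and 368 with dicoumarol, 304, 347 and 307 with magnolol, 233, 356 and 231 with the combination and 217, 235 and 243 with rosiglitazone, lower with rosiglitazone without overlap (−0.45 ± 0.14, adjusted p = 0.0483). Psmb9 in 3T3-L1 stood at 59.5, 40.5 and 66.3 with vehicle, 43.7, 47.8 and 47.0 with dicoumarol, 38.0, 27.4 and 41.5 with magnolol, 24.8, 35.3 and 33.0 with the combination and 21.2, 21.9 and 18.9 with rosiglitazone, and it fell without overlap (−1.35 ± 0.24, adjusted p = 0.000316). PSMB9 in DFAT, at 123, 134 and 118 with vehicle, 112, 76.2 and 91.4 with dicoumarol, 133, 109.7 and 118 with magnolol, 101, 91.6 and 54.8 with the combination and 127, 65.9 and 117 with rosiglitazone, showed no call, and unlike most pig members it read below vehicle with dicoumarol (−0.43 ± 0.24). The chemokine gene Cxcl10 was near the detection limit in 3T3-L1, at 1.78, 5.99 and 8.14 with vehicle, 0.88, 3.81 and 4.88 with dicoumarol, 0, 0 and 3.91 with magnolol, 1.01, 0 and 2.98 with the combination and 7.34, 2.17 and 6.17 with rosiglitazone. Its range within a group, up to 2.30 log2 units, was the widest of the mouse members. Pig CXCL10 was also low, at 16.9, 12.1 and 6.11 with vehicle, 12.7, 14.6 and 9.83 with dicoumarol, 28.1, 40.2 and 4.21 with magnolol, 0.98, 14.6 and 8.92 with the combination and 10.3, 2.57 and 3.06 with rosiglitazone, and had the largest range within a group of all pig members, 2.98 log2 units.

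The remaining members have varied or less settled roles. In 3T3-L1 Ifi44 (−1.71 ± 0.44, adjusted p = 0.00567), Sp110 (−1.59 ± 0.31, adjusted p = 0.000813), the receptor transporter Rtp4 (−1.45 ± 0.27, adjusted p = 0.000558) and the apoptosis factor Xaf1 (−1.24 ± 0.24, adjusted p = 0.000715) fell with rosiglitazone, while Ifi35 was not called (0.09 ± 0.14, adjusted p = 0.646). Ifi44 counts were 54.3, 20.5 and 24.4 with vehicle, 44.2, 20.9 and 20.5 with dicoumarol, 27.2, 19.0 and 9.78 with magnolol, 17.2, 16.1 and 11.9 with the combination and 6.29, 13.0 and 7.41 with rosiglitazone. Sp110 stood at 32.2, 38.3 and 25.6 with vehicle, 19.0, 27.6 and 21.6 with dicoumarol, 19.8, 21.1 and 22.2 with magnolol, 22.3, 26.5 and 14.9 with the combination and 15.7, 7.61 and 7.92 with rosiglitazone. Both had rosiglitazone libraries wholly below the vehicle libraries. Xaf1 was counted at 69.5, 82.2 and 121 with vehicle, 60.1, 90.5 and 84.8 with dicoumarol, 63.0, 63.3 and 68.5 with magnolol, 43.6, 68.0 and 39.7 with the combination and 37.7, 34.8 and 38.3 with rosiglitazone. All 3 magnolol libraries of Xaf1 lay below vehicle at −0.44 ± 0.24, adjusted p = 0.59. Pig XAF1 was counted at 49.0, 69.1 and 48.9 with vehicle, 75.1, 49.7 and 107 with dicoumarol, 71.3, 109 and 91.5 with magnolol, 29.4, 69.8 and 43.3 with the combination and 42.3, 35.1 and 57.0 with rosiglitazone. Here all 3 magnolol libraries lay above vehicle at 0.69 ± 0.31, adjusted p = 0.264, and neither difference was called. In DFAT IFI6, a mitochondrial and endoplasmic reticulum protein that limits flavivirus replication, was called lower in 3 comparisons, more than any other pig member. It was counted at 1429, 2147 and 2075 with vehicle, 1940.2, 1590.4 and 1832 with dicoumarol, 1579, 1892 and 1256 with magnolol, 1094, 1297 and 836 with the combination and 933, 1122 and 841 with rosiglitazone. Both the combination and rosiglitazone groups lay wholly below vehicle, at −0.81 ± 0.18, adjusted p = 0.00599 and −0.95 ± 0.18, adjusted p = 0.00134. IFI44L, a feedback regulator of the response, stood at 2824, 3666 and 3914 with vehicle, 3954, 3409 and 4374 with dicoumarol, 3674, 4619 and 3659 with magnolol, 2954, 3580.2 and 3147 with the combination and 2125, 2289.7 and 2586 with rosiglitazone. All 3 rosiglitazone libraries were the lowest of the 15, at −0.56 ± 0.12, adjusted p = 0.00583. The pig members not named with a value so far (CMPK2, DTX3L, EPSTI1, IFI35, IFI44, PARP14, PARP9, SP110 and UBA7) differed from vehicle by −0.94 to −0.09 with rosiglitazone, and none was called. Mouse Epsti1, the least counted mouse member at 0 to 1.89 normalized counts, and mouse Ifi44l at 0.99 to 4.72 were not tested.

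**Figure D3:**
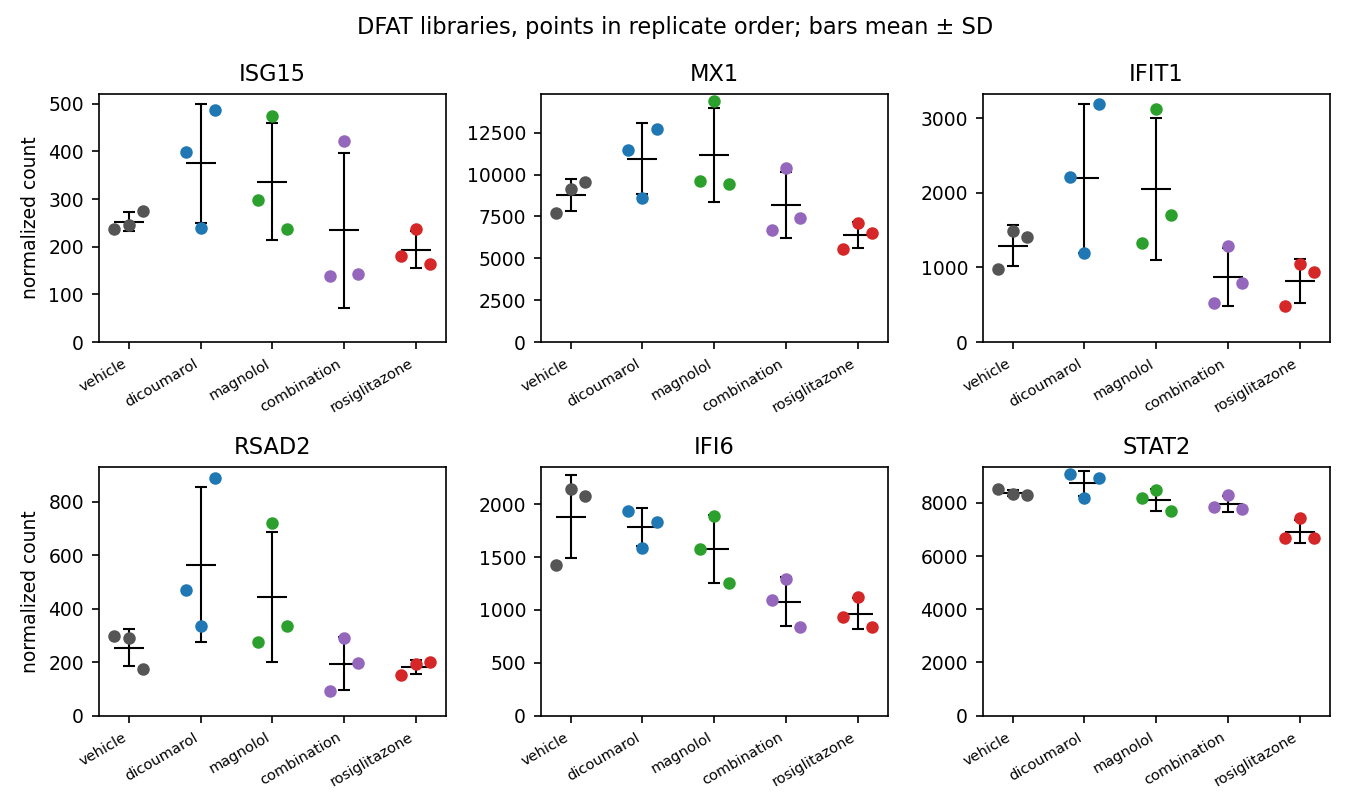
Normalized counts (vertical axes, starting at 0) of 6 members in the 15 DFAT libraries, 1 point a library in replicate order, with the group mean and SD as bars. ISG15, MX1, IFIT1 and RSAD2 are high in dicoumarol replicates 1 and 3, magnolol replicate 2 and, within its group, combination replicate 2, while IFI6 and STAT2 are lower with rosiglitazone than with vehicle in all 3 libraries.

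With the compounds, the pattern in DFAT was uneven between the libraries of a group. The median deviation of the 36 members from their own means over the 15 libraries, in log2 units, was 0.40, 0.01 and 0.50 in dicoumarol replicates 1, 2 and 3, and 0.12, 0.63 and 0.07 in the magnolol libraries. It was −0.35, 0.08 and −0.37 with the combination, −0.52, −0.30 and −0.42 with rosiglitazone, and −0.11, 0.14 and 0.05 with vehicle. Over all genes the same median lay within 0.015 of 0 in each of these 15 libraries. Magnolol replicate 2 was the highest of its group for 34 of the 36 members (33.3% of all genes), combination replicate 2 for 34 (33.1%), and dicoumarol replicate 2 was the lowest of its group for 33 (30.8%). In each of these 3 groups replicate 2 thus stood above or below the rest of its group for nearly all members at once.

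**Figure D4:**
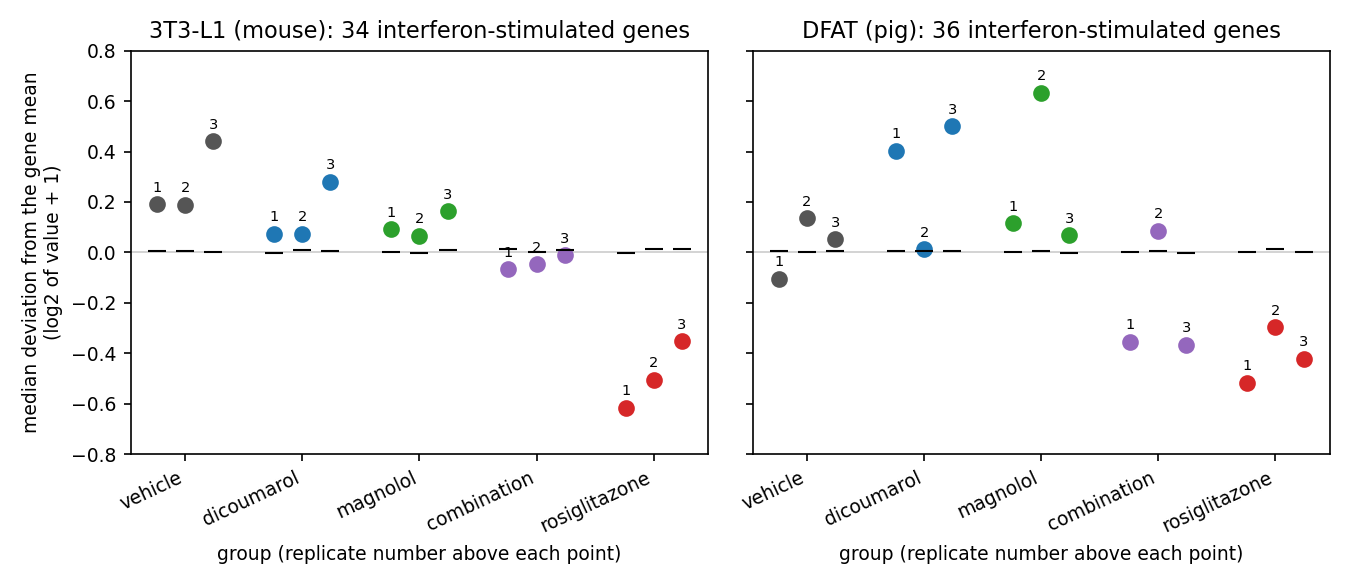
Median deviation of the tested members from their gene means (vertical axis, log2 of value + 1) in each library of 3T3-L1 (left, 34 members) and DFAT (right, 36 members), with replicate numbers above the points; short bars are the same median over all genes. In DFAT magnolol replicate 2 is highest at 0.63 and rosiglitazone replicate 1 lowest at −0.52, and in 3T3-L1 the values run from 0.44 in vehicle replicate 3 to −0.62 in rosiglitazone replicate 1.

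Within these groups the pig members varied more than other genes. This is a description only, since the members were chosen with their joint movement between libraries known. Among pig genes averaging at least 100, the median SD of the log2 values between replicates was 0.30, 0.34 and 0.34 for 34 members with dicoumarol, magnolol and the combination, against 0.057, 0.091 and 0.093 for 11354 genes. With vehicle and rosiglitazone it was 0.16 and 0.18, against 0.099 and 0.12. In 3T3-L1, over 18 members and 11617 genes, the group values ran from 0.094 to 0.18 for members and from 0.12 to 0.17 for all genes. In the mouse groups replicate 3 had the highest median deviation throughout: 0.44 for vehicle, 0.28 for dicoumarol, 0.16 for magnolol, −0.01 for the combination and −0.35 for rosiglitazone. It was the highest of its group for 22, 19, 20, 16 and 16 of the 34 members, in that order, where it was so for 33.4%, 35.7%, 36.6%, 35.7% and 27.7% of all genes. The mouse rosiglitazone libraries lay at −0.62, −0.50 and −0.35, below all other 3T3-L1 libraries, the lowest of which was at −0.07.

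The genes that followed the members most closely are given as a description, since the members were chosen for moving together. After group means were taken out, each gene was correlated over the 15 libraries with the mean of the standardized members, a member being left out of the mean it was compared with. In DFAT 15 of the 30 most correlated genes were members, led by MX1 (Pearson's r = 0.98), EPSTI1 and IFI44, and the members' median r was 0.83 against 0.03 over all genes. The 10 closest non-members were HERC5 (r = 0.96), PARP12, DDX60, UBE2L6, ADAR, B4GALNT4 and GBP1 with 3 genes that had no symbol in the table, and 6 of the 10 stood on a wider list of interferon targets. PSMB9 was the member that followed the others least (r = 0.02). In 3T3-L1 only 2 of the 30 were members, Ifit1 (r = 0.96) and Uba7, the members' median r was 0.44, and Sp110 went against them (r = −0.60). The closest mouse non-members were Gbp3, Cdr2l, Notch4, Dnaaf5, Nod1, Gsap, Gm6169, Ifit3b, Rhbdd2 and Plp2, of which 2 were on the wider list. These libraries share normalization, and the points are not independent of the choice of members.

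The combination was also set against each single compound in DFAT, and these comparisons share the combination libraries. Against dicoumarol all 36 members were lower (53.2% of all genes were), with a median of −0.45, and 3 fell: ZBP1 (−1.23 ± 0.25, adjusted p = 0.0126), DHX58 (−0.90 ± 0.21, adjusted p = 0.0309) and IFI6 (−0.75 ± 0.18, adjusted p = 0.0295), against 0.344% of genes that fell and 2% that rose. These 3 calls were lost without the filter on low values, without the variance trend, and without dicoumarol replicate 1 or 3 or combination replicate 1 or 3 (adjusted p from 0.0527 to 0.194). All combination libraries lay below all dicoumarol libraries for 11 members, against 11.8% of genes. ZBP1 counts were 506, 701 and 557 with vehicle, 1059.8, 570.4 and 1157 with dicoumarol, 570.03, 1015 and 587 with magnolol, 315, 473 and 366 with the combination and 302, 459.7 and 365 with rosiglitazone. The highest combination library of ZBP1 lay below the lowest dicoumarol library, which was replicate 2. DHX58 read 642, 394 and 592 with dicoumarol and 237, 378 and 255 with the combination, again without overlap.

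Against magnolol all 36 members were again lower (50.8% of genes were), with a median of −0.45. Limma called 0 of them, against 0.385% of genes that rose and 0.236% that fell, while 24 had an unadjusted p under 0.05 against 6.67% of genes. For 12 members the groups did not overlap, against 6.03% of genes. Same-numbered magnolol and combination libraries deviated together (r from 0.118 to 0.345), although different numbers in DFAT reached 0.276. With the block 1 member, IRF1, fell (−0.32, adjusted p = 0.0369), where 0.938% of genes fell. That block was fitted over all 5 groups, including vehicle and dicoumarol, which were not taken as paired, so this call is uncertain. A direct test of whether the combination differed from the sum of both single effects, chosen after the data were seen, called 0 of the 36 members against 0.081% of genes. All 36 lay below the sum, with a median of −0.78, and 28 had an unadjusted limma p under 0.05 against 3.93% of genes. Because the members were chosen for moving together between libraries, such counts, here and against magnolol, are not separate results for each gene. The largest shortfalls were −2.28 ± 0.57 for RSAD2, −1.92 ± 0.54 for IFIT1, −1.83 ± 0.48 for IFIT2, −1.60 ± 1.09 for CXCL10 and −1.51 ± 0.43 for CMPK2. The smallest adjusted p was 0.362, for ZBP1 (−1.49 ± 0.36). In 3T3-L1 the same test called 0 of 34 members, where 0% of genes passed, and 0 had an unadjusted p under 0.05, against 0.496% of genes.

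The pathway that drives these genes was examined with a separate list of ligands, receptors, kinases, inhibitors and sensors. Ligand transcripts were near 0: mouse Ifng reached at most 7.95 normalized counts, and in DFAT IFNB1 reached 4.23, IFNA1 4.47 and IFNE 14.1, while IFNG was 0 in every library. With rosiglitazone 11 of 26 tested mouse pathway genes fell and 3 rose, against 19.9% and 20.3% of all genes. Among the largest falls were those of the adaptor Sting1 (−0.85 ± 0.11), the kinase Jak1 (−0.83 ± 0.12) and the RNA sensor Tlr3 (−0.71 ± 0.15). With the combination Sting1 alone of the 26 fell (−0.50 ± 0.11, adjusted p = 0.0135), where 1.36% of all genes fell.

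With rosiglitazone in DFAT the interferon gamma receptor chain IFNGR2 rose (0.51 ± 0.07, adjusted p = 0.000145) and the repressor IRF2 fell (−0.21 ± 0.06, adjusted p = 0.0427). These were 1 rise and 1 fall among 24 tested genes, against 5.8% and 5.02% of all genes, shares near the background. With the combination the feedback inhibitor SOCS3 (−0.78 ± 0.14, adjusted p = 0.00131), IFNGR2 and STAT3 fell among the 24 tested genes, where 4.06% of all genes fell. No pathway gene was called in either system with dicoumarol or magnolol alone. On a wider list of interferon targets outside the members, 46 of 75 tested genes fell and 6 rose with rosiglitazone in 3T3-L1, against 19.9% and 20.3% of all genes. Their median was −0.59, and the largest changes were those of the helicase gene Ddx60 (−2.87 ± 0.43), Apol9a (−1.97 ± 0.29), the GTPase gene Ifi47 (−1.87 ± 0.64) and Apol9b (−1.84 ± 0.37). In DFAT 5 of 48 fell and 1 rose with rosiglitazone (median −0.16), against 5.02% and 5.8% of all genes, among them LGALS3BP (−0.62 ± 0.11), PLSCR1 (−0.52 ± 0.11) and TRIM34 (−0.51 ± 0.15) falling and the proteasome activator PSME2 (0.64 ± 0.10) rising. B2m, the light chain of class I antigen molecules, fell with the combination in both systems (−0.55 ± 0.12, adjusted p = 0.0144 in mouse, −0.43 ± 0.10, adjusted p = 0.00993 in pig). There 1.36% of all mouse genes and 4.06% of all pig genes fell. B2m is 1 gene, and counts over the wider list are not reported here for the combination.

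The mouse falls were also counted by promoter match. With rosiglitazone 7 of the 9 tested members with an ISRE match fell (median −0.82), as did 13 of the 18 with a promoter and no match (median −0.94) and 6 of the 7 without a promoter in the table (median −1.25). Of all genes 19.9% fell. Oasl2, whose window held no match, had the lowest value of the tested members (−2.42), and Isg15, with 3 matches, read 0.02.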

How the data were processed

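Gene-level signal values, counts divided by DESeq2 size factors by the authors, were deposited as 1 table for each system, with 15 libraries of poly(A) RNA each. Per the submitters' processing notes the tools were bcl2fastq 2.19.1.403, STAR and DESeq2, with GRCm38 as the only build named. The read counter, annotation and pig build were not given in the sources used here, and the gene starts of the mouse table matched GENCODE M21 for 2.18% of 24070 genes, so no gene coordinates were taken from it. Count tests need whole reads, and 81.6% to 82.7% of low mouse values and 89.7% to 91.0% of low pig values came out whole within 0.02 (up to 20 reads), so none was run.

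Genes with a mean of at least 10 were tested with limma 3.58.1 in R 4.3.3 (lmFit and eBayes with a variance trend) on log2(value + 1), two-sided, with Benjamini-Hochberg adjustment over all genes tested. The scripts were tested on simulated data. Groups came from the sample titles. Members and gene lists were chosen with earlier results of these data known. Values in every library were given for members picked by role and for the members with the largest called changes, the highest and lowest mean or the widest range. Other lists were given as counts with the largest called changes. Some genes of these lists are not reported here. Alternatives were a pseudocount of 5, no filter, quantile normalization, only the compared groups, no variance trend, the replicate number as a block and each library left out. Same-numbered 3T3-L1 libraries deviated together from their group means in all 30 pairs (lowest r = 0.106, median 0.300), which pairs them by the data and not by a label. Different numbers had a median of −0.142, but deviations within a group cancel, so that negative value follows and is no separate support. Different numbers also reached r = 0.203, above the lowest same-numbered pair. The 3T3-L1 calls with the block rest on this pairing. In DFAT all same-numbered pairs passed r = 0.1 among magnolol, the combination and rosiglitazone (r from 0.105 to 0.345). Over all DFAT groups same numbers ran from −0.306 to 0.345, and different numbers reached 0.276.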

Additional observations from a re-analysis of the deposited data

Results flagged for a closer look

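XAF1 (Xaf1 in the mouse table) lay on opposite sides of vehicle with magnolol in the 2 systems. The log2 difference from vehicle was −0.44 ± 0.24 (SE, n = 3) in 3T3-L1, with all 3 magnolol libraries below all 3 vehicle libraries, and 0.69 ± 0.31 (SE, n = 3) in DFAT, with all 3 above. Neither was called, the difference between the systems was not tested, and it was the only such case among 116 pairs of a gene and a treatment looked at.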

How the results depend on the processing

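No called member reversed its direction in any alternative run. Counts of called members and ranges between library medians were compared by size only, 185 times labelled the same and 35 times moved. With the replicate number as a block, the members called in 3T3-L1 went from 0 to 1 with magnolol, from 1 to 12 with the combination and from 0 to 1 for the combination against dicoumarol, and in DFAT from 0 to 1 for the combination against magnolol. Where the numbers were not taken as pairing the libraries, the block moved the DFAT combination against dicoumarol from 3 to 12 and DFAT rosiglitazone from 8 to 12. The block raised calls over all genes as well: with the 3T3-L1 combination the share called lower went from 1.36% to 5.48%. For these DFAT counts and for the settings below no share of all genes is given, so they do not describe the members alone. Without the variance trend the count was 2 for the 3T3-L1 combination, 3 for DFAT rosiglitazone (8 in the report) and 0 for the DFAT combination against dicoumarol. Without the filter on low values the latter counts were 3 and 0. With only the compared groups fitted they were 14 and 6, and DFAT dicoumarol gave 1. Leaving out each library in turn gave 0 to 3 for the 3T3-L1 combination, 21 to 26 for 3T3-L1 rosiglitazone, 1 to 4 for the DFAT combination, 3 to 9 for DFAT rosiglitazone and 0 to 9 for the DFAT combination against dicoumarol. The range between library medians with members averaging at least 100 was 0.148 for magnolol and 0.105 for the combination in 3T3-L1. The cause of these shifts was not tested. Refits of single called members kept the call 395 times and lost it 85 times. The combination against the sum of both single effects gave 0 called members under each alternative, all chosen after seeing the data. Mouse members averaging near the minimum of 10 rest on few reads.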
